A study of Mus musculus with 12 samples.

Results

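The genes followed were 9 by which germ cells are recognised, hold and translate their RNA, or meet other cells: Ddx4, Dazl, Stk31, Tex14, Cpeb1, Ybx2, Kit, Cdh1 and Zbtb16. They were chosen by name, as the probes that carry one of these gene names on the array. Of the 9 genes, 8 were measured, by 10 probes, among 18680 genes tested, and Zbtb16 was not analysed here. Total RNA of whole mouse gonads at embryonic day E14.5 was measured on 12 single-colour arrays, 3 for each of 4 groups. All mice were of mixed background, and all pregnant mothers had received tamoxifen at E9.5 and E10.5.

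The 3 control testes and control ovary 1 were Smad4Flox/+ StellaMerCreMer Stra8+/-. Control ovary 2 was Smad4Flox/+ Stra8+/- and control ovary 3 was Smad4Flox/Flox Stra8+/-, with no Cre named for either, so the control ovaries did not share a single genotype. The Smad4 (Stella) ovaries, called Smad4 ovaries below, were Smad4flox/floxMerCreMer Stra8+/-, and the double knockout (DKO) ovaries were Smad4flox/floxMerCreMer Stra8-/-. Every group thus carried at least 1 lost copy of Stra8, the DKO ovaries lacked both, and no group lacked Stra8 alone. In the mutants Smad4 is removed only in cells in which the Stella element drives the tamoxifen-dependent Cre, that is in germ cells, and not in every germ cell, while the supporting, stromal and vascular cells of the gonad are in the same RNA. The replicates of a group were biological triplicates, each from 1 pair of gonads.

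Fetal germ cells enter the gonad with the same identity in both sexes and then part: those of the ovary begin meiosis, and those of the testis stop dividing and differentiate as male gonocytes. Much of what a germ cell makes is controlled after transcription, through RNA-binding proteins that store or activate messages and through helicases in germ cell granules. At the surface, the receptor KIT receives survival signals from somatic cells, and E-cadherin, the product of Cdh1, holds germ cells to one another.

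A level below is log2 of the background-corrected intensity minus log2 of the 75th percentile of that array, so that 0 is the brightness of that percentile and 1 unit is a 2-fold difference. Levels of different genes cannot be set against each other, because probes differ in brightness. The 75th percentile ran from 476 to 997 intensity units over the arrays, 58.8% to 70.5% of probes were well above background, and 0 spots were saturated. The labelled sex was checked against somatic markers: 7 of 8 Sertoli genes and 5 of 5 fetal Leydig genes rose in the testes over the control ovaries, and 6 of 6 pregranulosa genes fell. In DKO ovaries against control ovaries none of these 19 genes was called. Stra8 stood at 6.71, 6.16 and 6.46 in control ovaries, 6.34, 6.41 and 6.28 in Smad4 ovaries, 5.61, 5.28 and 5.38 in DKO ovaries and between -2.98 and -2.32 in testes, and Smad4 lay between 1.96 and 2.42 everywhere. Whether these probes lie in the deleted parts of the 2 genes was not determined here, so their levels do not check the genotypes.

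The results rest on short probes, and the first 30 of the 60 bases of those for the 5 genes that passed the test in DKO ovaries are shown so that the transcript read for each can be looked up. Positions are those of the array design, on mm9, for the whole probe. The Cdh1 probe lay at chr8:109193812-109193871 on the plus strand, the Kit probe at chr5:76052287-76052346 on the plus strand, the Cpeb1 probe at chr7:88492363-88492422 on the minus strand, the Ybx2 probe at chr11:69754994-69755053 on the plus strand and the Stk31 probe at chr6:49397301-49397360 on the plus strand. An annotation of that build was not used here, so exon and untranslated positions are not given.
Cdh1: acattctaacgggaaaaaggagacaagacc
Kit: tgtggtcatgtacgagactgtcaccagtta
Cpeb1: gcaccttatgttgcacttatgttgggggag
Ybx2: acccatttattttttgtttcccttcgacct
Stk31: acataattcatggatcacttcatcagaaca

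The remaining probes were at chr13:113388616-113388675 on the minus strand for Ddx4, at chr17:50426957-50427103 and chr17:50418923-50418982 on the minus strand for Dazl, and at chr11:87369134-87369193 and chr11:87287953-87288012 on the plus strand for Tex14. The first Dazl probe spans 147 bases of the genome with its 60 bases, so it is matched in pieces. Kit and Cdh1 were printed as 10 spots each, and the median SD over the spots of an array was 0.06 for Kit and 0.08 for Cdh1 on the log2 scale. The other 8 probes were single spots.

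**Figure D1:**
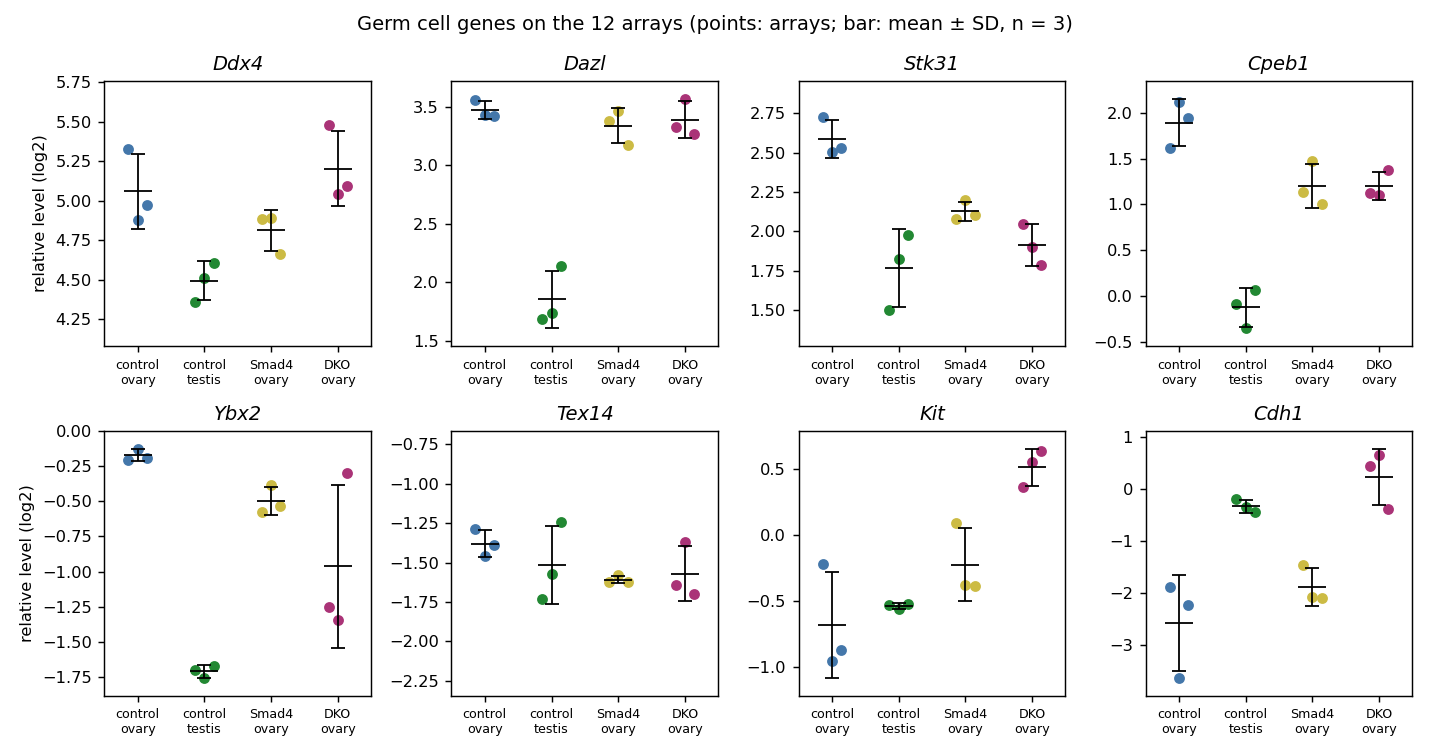
Relative level (log2 intensity minus log2 of the array's 75th percentile) of the 8 measured germ cell genes on each array, in 4 groups of 3; points are arrays, the long bar is the mean and the whiskers are the SD, and each panel has its own axis. Dazl, Cpeb1 and Ybx2 are lowest in the 3 testes, Kit is highest in the 3 DKO ovaries, and DKO ovary 3 stands apart from the other 2 DKO ovaries in Ybx2.

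The first comparison, control testes against control ovaries, gives the sex difference of these genes at E14.5. Cdh1 rose in the testes, by 4.76-fold, and Dazl, Stk31, Cpeb1 and Ybx2 fell, by 1.76-fold for Stk31 to 4.06-fold for Cpeb1. A gene was called where limma's adjusted p over all genes was under 0.05 and the change at least 1.5-fold. Thus 1 of 8 genes was called higher, where 17.3% of all genes were, and 4 of 8 lower, where 16.7% of all genes were. The groups did not overlap for 6 of 8 genes, and for 58.5% of all genes. The median change of the 8 genes was -0.69 and that of all genes was 0.02.

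In Smad4 ovaries against control ovaries, the comparison that asks what loss of Smad4 does alone, 0 of 8 genes were called higher and 0 lower, where 0.134% and 0.139% of all genes were. Of the 8 genes 3 had an unadjusted limma p under 0.05, and 4 by the methods' t-test. Groups did not overlap for 4 genes, Cpeb1, Stk31, Tex14 and Ybx2, each lower in the mutant, and for 28.1% of all genes. For Tex14 this held only for the mean of its probes, and by each probe alone the groups overlapped. The largest difference was that of Cdh1, +0.70 ± 0.42 (SE; limma adjusted p = 0.369).

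In DKO ovaries against control ovaries 5 of 8 genes were called. Cdh1 and Kit rose, where 6.73% of all genes did, and Stk31, Cpeb1 and Ybx2 fell, where 7.94% of all genes did. Groups did not overlap for these 5 genes and for 32.9% of all genes. The median size of the change, direction aside, was 0.68 for the 8 genes and 0.27 for all genes.

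Against Smad4 ovaries, the DKO ovaries differed in Kit and Cdh1, 2 of 8 genes called higher where 4.42% of all genes were, and 0 of 8 were called lower where 4.03% were. In this comparison groups did not overlap for 4 genes, Cdh1, Kit, Ddx4 and Stk31, and for 31.2% of all genes. Against control testes 5 of 8 genes were called higher in DKO ovaries, Ddx4, Dazl, Cpeb1, Ybx2 and Kit, where 12.7% of all genes were, and 0 were called lower where 13% were. Groups did not overlap for those 5 genes and for 50.6% of all genes. Both comparisons share the DKO arrays with the one before, and the comparisons with control ovaries share those 3 arrays, so they are not independent of one another.

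**Figure D2:**
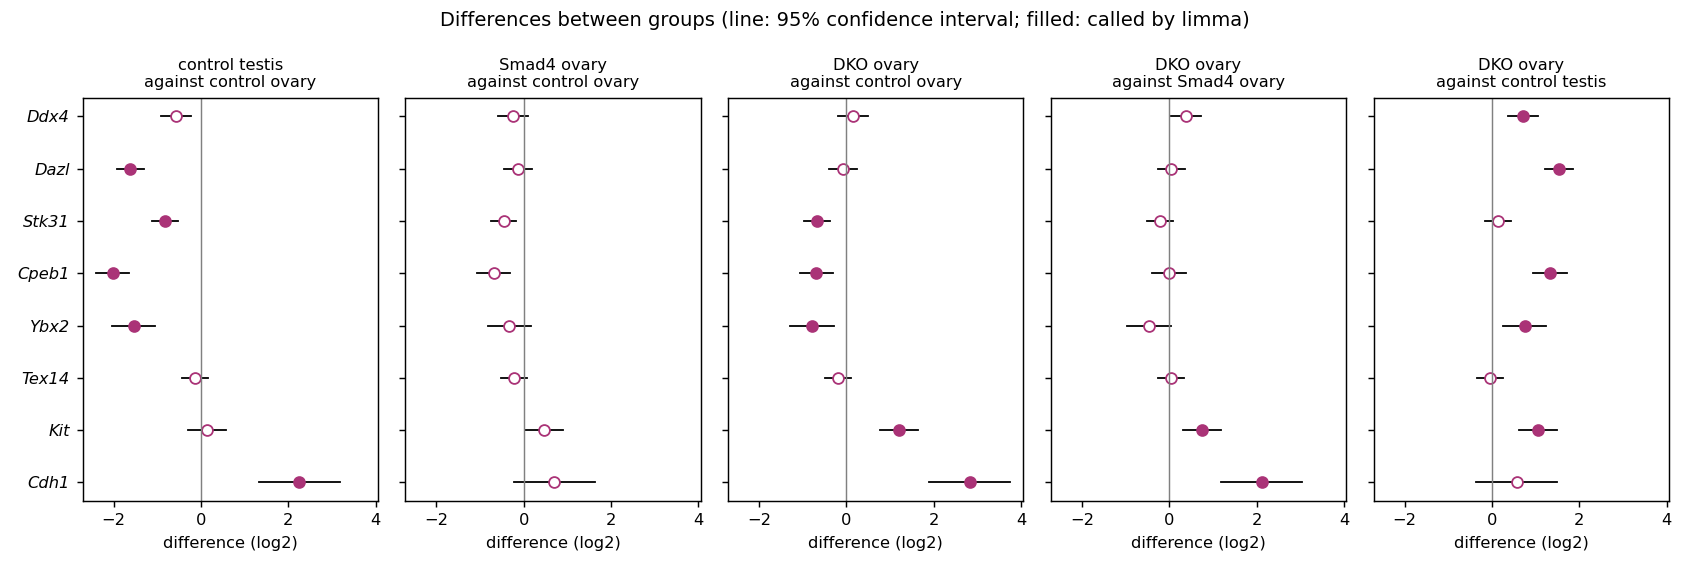
Difference in relative level (log2) of the 8 genes in the 5 comparisons; the point is the estimate of limma over 12 arrays, the line its 95% confidence interval, and filled points were called. Kit and Cdh1 lie to the right of 0 in both comparisons of DKO ovaries with other ovaries, while the intervals of Dazl hold 0 there and that of Ddx4, 0.05 to 0.74, does not in DKO against Smad4 ovaries.

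Ddx4, also known as Mvh, encodes the RNA helicase that marks germ cells of both sexes, and its level stood at 5.33, 4.88 and 4.97 in control ovaries, 4.36, 4.51 and 4.60 in control testes, 4.88, 4.89 and 4.66 in Smad4 ovaries and 5.48, 5.04 and 5.09 in DKO ovaries. The testes were lowest and did not overlap the 3 ovary groups, and the DKO ovaries overlapped the control ovaries. In DKO against control ovaries the difference was +0.14 ± 0.15 (SE; limma adjusted p = 0.561), with a 95% confidence interval of -0.20 to 0.49. Over Smad4 ovaries, which the DKO ovaries did not overlap, it was +0.39 ± 0.15 and not called (limma adjusted p = 0.134), with an interval of 0.05 to 0.74. In testes against control ovaries it was -0.57 ± 0.15, or 1.48-fold (limma adjusted p = 0.0116), under the threshold of 1.5-fold. That gene was called lower without control testis 3, control ovary 2 or control ovary 3, at -0.62, -0.66 and -0.61. DKO ovaries stood 0.71 ± 0.15 above testes (limma adjusted p = 0.00480), and without DKO ovary 1 the difference was 0.57, or too small to be called. In whole gonads fewer germ cells and less RNA in each germ cell cannot be told apart, so these levels do not by themselves give the number of germ cells.

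Dazl encodes an RNA-binding protein that promotes translation of germ cell messages and licenses germ cells for sexual differentiation. Its level was 3.56, 3.43 and 3.42 in control ovaries, 3.38, 3.47 and 3.17 in Smad4 ovaries, 3.33, 3.57 and 3.27 in DKO ovaries and 1.69, 1.74 and 2.14 in testes. All 9 ovaries lay above all 3 testes, and the ovary groups overlapped one another. The fall in testes was -1.62 ± 0.14, or 3.07-fold (limma adjusted p = 7.73e-06), and DKO ovaries stood 1.54 ± 0.14 above testes (limma adjusted p = 1.96e-05). In DKO against control ovaries the difference was -0.08 ± 0.14 (limma adjusted p = 0.736), with a 95% confidence interval of -0.39 to 0.23. Tested on their own, in a fit chosen after the data were seen, its 2 probes differed by -1.68 and -1.55 in testes, and by +0.04 and -0.20 in DKO against control ovaries.

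Cpeb1 encodes the protein that binds the cytoplasmic polyadenylation element and holds oocyte messages silent until their tails are lengthened. Its level was 1.61, 2.12 and 1.95 in control ovaries, 1.13, 1.47 and 1.01 in Smad4 ovaries, 1.13, 1.1 and 1.38 in DKO ovaries and -0.09, -0.35 and 0.06 in testes. The testes were lowest, both mutant groups lay between testes and control ovaries without overlapping either, and the mutants overlapped each other. The fall was -2.02 ± 0.17 in testes (limma adjusted p = 6.74e-06) and -0.69 ± 0.17, or 1.62-fold, in DKO ovaries (limma adjusted p = 0.0158), each against control ovaries. In Smad4 ovaries the difference was also -0.69 ± 0.17, with a limma adjusted p of 0.0904, and it was not called. DKO and Smad4 ovaries were within -0.38 to 0.38 of each other (95% confidence interval of the difference). The DKO call was lost without control ovary 2, at -0.58, and without DKO ovary 2, at -0.64 (limma adjusted p = 0.0602 and 0.0552).

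Ybx2 encodes a cold-shock-domain protein that packs and stores germ cell messages. Its level was -0.21, -0.12 and -0.19 in control ovaries, -0.57, -0.39 and -0.54 in Smad4 ovaries and -1.70, -1.76 and -1.67 in testes. DKO ovaries 1 and 2 stood at -1.25 and -1.34, between the Smad4 ovaries and the testes, whereas DKO ovary 3 stood at -0.29, next to the control ovaries and above all 3 Smad4 ovaries. Ybx2 fell by 1.54 ± 0.22 in testes (limma adjusted p = 0.000269) and by 0.79 ± 0.22 in DKO ovaries (limma adjusted p = 0.0286), each against control ovaries. Without DKO ovary 3 the DKO difference was -1.13 (limma adjusted p = 8.50e-05). Without any 1 of the other 5 arrays of that comparison the call was lost, with limma adjusted p between 0.0547 and 0.1. Without DKO ovary 3 it was also called lower in DKO than in Smad4 ovaries, at -0.80 (limma adjusted p = 0.00111), where the full set gave -0.46 ± 0.22 (limma adjusted p = 0.221). Above testes by 0.75 ± 0.22 (limma adjusted p = 0.0239), Ybx2 in DKO ovaries lost that call without any 1 testis, and without DKO ovary 3 the difference was 0.41, under the 1.5-fold threshold.

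Stk31 encodes a germ cell protein with a tudor and a kinase-like domain that is found in RNA granules. Its level was 2.73, 2.50 and 2.53 in control ovaries, 2.08, 2.20 and 2.10 in Smad4 ovaries, 2.05, 1.90 and 1.79 in DKO ovaries and 1.5, 1.83 and 1.98 in testes. The control ovaries were highest and overlapped no other group, the Smad4 ovaries lay above the DKO ovaries without overlap, and DKO ovaries and testes overlapped. Stk31 fell by 0.82 ± 0.13 in testes (limma adjusted p = 0.000531) and by 0.67 ± 0.13 in DKO ovaries (limma adjusted p = 0.00452), against control ovaries in both. In Smad4 ovaries the difference was -0.46 ± 0.13 (limma adjusted p = 0.118). DKO ovaries and testes differed by 0.14 ± 0.13 (limma adjusted p = 0.424), with a 95% confidence interval of -0.15 to 0.44.

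Tex14 encodes a protein of the intercellular bridges that join sister germ cells. Its 2 probes were averaged, and the second was above background on 8 of 12 arrays. The gene level ran from -1.46 to -1.29 in control ovaries, from -1.73 to -1.24 in testes, from -1.62 to -1.58 in Smad4 ovaries and from -1.70 to -1.37 in DKO ovaries. Testes and DKO ovaries overlapped the control ovaries, and the Smad4 ovaries lay just below them, though by each probe alone they overlapped them. No comparison called it: the difference from control ovaries was -0.14 ± 0.13 in testes (limma adjusted p = 0.435), -0.23 ± 0.13 in Smad4 ovaries (limma adjusted p = 0.363) and -0.19 ± 0.13 in DKO ovaries (limma adjusted p = 0.357). The brighter probe, tested on its own after the data were seen, differed by -0.17, -0.19 and -0.05 in the same comparisons.

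Kit encodes the receptor tyrosine kinase for stem cell factor, and its level was -0.22, -0.95 and -0.87 in control ovaries, -0.52, -0.56 and -0.52 in testes, 0.10, -0.38 and -0.39 in Smad4 ovaries and 0.36, 0.55 and 0.64 in DKO ovaries. The DKO ovaries were the highest of the 4 groups and overlapped none, while control ovaries, testes and Smad4 ovaries lay lower, with control ovary 1 above the 2 other controls. Kit rose in DKO ovaries by 2.29-fold over control ovaries (1.20 ± 0.20, limma adjusted p = 0.00164), by 1.67-fold over Smad4 ovaries (0.74 ± 0.20, limma adjusted p = 0.0346) and by 2.07-fold over testes (1.05 ± 0.20, limma adjusted p = 0.00201). The call against Smad4 ovaries was lost without any 1 of 5 of its 6 arrays, the exception being Smad4 ovary 1, with differences from 0.66 to 0.82. Between testes and control ovaries the difference was 0.14 ± 0.20 (limma adjusted p = 0.581), with a 95% confidence interval of -0.29 to 0.58. In Smad4 ovaries it was 0.45 ± 0.20 over control ovaries (limma adjusted p = 0.238).

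Cdh1 stood at -1.88, -3.64 and -2.23 in control ovaries, -1.46, -2.09 and -2.10 in Smad4 ovaries, -0.20, -0.34 and -0.45 in testes and 0.44, 0.64 and -0.38 in DKO ovaries. Testes and DKO ovaries lay above all 6 other ovaries and overlapped each other at DKO ovary 3, and control ovary 2 was the lowest array. Cdh1 rose by 7.05-fold in DKO ovaries (2.82 ± 0.42, limma adjusted p = 0.000879) and by 4.76-fold in testes (2.25 ± 0.42, limma adjusted p = 0.00127), both over control ovaries. Without control ovary 2 these differences were 2.29 and 1.72, and both were still called. Over Smad4 ovaries the rise in DKO ovaries was 4.35-fold (2.12 ± 0.42, limma adjusted p = 0.00952). DKO ovaries and testes differed by 0.57 ± 0.42 (limma adjusted p = 0.317), with a 95% confidence interval of -0.36 to 1.49.

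The 12 arrays were on 3 slides. The testes shared a slide with control ovary 1, control ovaries 2 and 3 shared one with DKO ovaries 1 and 2, and the Smad4 ovaries shared one with DKO ovary 3. Within the second slide DKO ovaries 1 and 2 differed from control ovaries 2 and 3 by 3.48 in Cdh1, 1.37 in Kit, -0.54 in Stk31, -0.92 in Cpeb1, -1.14 in Ybx2, 0.34 in Ddx4 and 0.02 in Dazl. That comparison leaves out control ovary 1, the only control ovary with Cre named and the highest control ovary in Kit and Cdh1. Slide and control genotype therefore cannot be told apart in it. Within the first slide the testes differed from control ovary 1 by 1.55 in Cdh1, -1.71 in Dazl, -0.96 in Stk31, -1.74 in Cpeb1, -1.51 in Ybx2, -0.84 in Ddx4 and -0.32 in Kit. DKO ovary 3 differed from the Smad4 ovaries of its slide by 1.51 in Cdh1 and 0.86 in Kit, and with slide as a block Cdh1 was not called in that comparison (limma adjusted p = 0.116). Control ovaries and Smad4 ovaries shared no slide, nor did DKO ovaries and testes, and for these comparisons no value within a slide can be given. With slide as a block, Smad4 and control ovaries are compared only indirectly, through DKO ovary 3, the sole other array on the Smad4 slide. DKO ovaries and testes are then compared through control ovary 1, the sole other array on the testis slide.

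Scaling each array to its own Ddx4 level gives the other genes per unit of a germ cell message rather than per unit of gonad RNA. Relative to Ddx4, Stk31 was -2.60, -2.38 and -2.44 in control ovaries and -3.43, -3.14 and -3.30 in DKO ovaries, the lowest of the 4 groups, with no overlap. The differences of DKO from control ovaries were then -0.82 in Stk31 (limma adjusted p = 0.00378), 1.05 in Kit (limma adjusted p = 0.00535) and 2.67 in Cdh1 (limma adjusted p = 0.000460), all 3 called. On the same scale Cpeb1 differed by -0.84 and Ybx2 by -0.94, and neither was called (limma adjusted p = 0.0509 and 0.0546). In testes against control ovaries Dazl was still lower, by 1.05, Cpeb1 by 1.45 and Ybx2 by 0.97, and Kit was now called higher, at 0.71 (limma adjusted p = 0.0129), while Stk31 was not called, at -0.25 (limma adjusted p = 0.178). In DKO ovaries against testes Stk31 turned from 0.14 to -0.57 (limma adjusted p = 0.00750) and Tex14 was called lower, at -0.77 (limma adjusted p = 0.00502), while Dazl remained higher, at 0.82. Kit in DKO ovaries then stood only 0.35 above Smad4 ovaries and 0.34 above testes, both under the 1.5-fold threshold. Relative to Ddx4 the DKO ovaries overlapped both of these groups in Kit. This scaling moves the median of all genes by 0.59 in testes and -0.14 in DKO ovaries, each against control ovaries, and by -0.73 in DKO ovaries against testes.

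**Figure D3:**
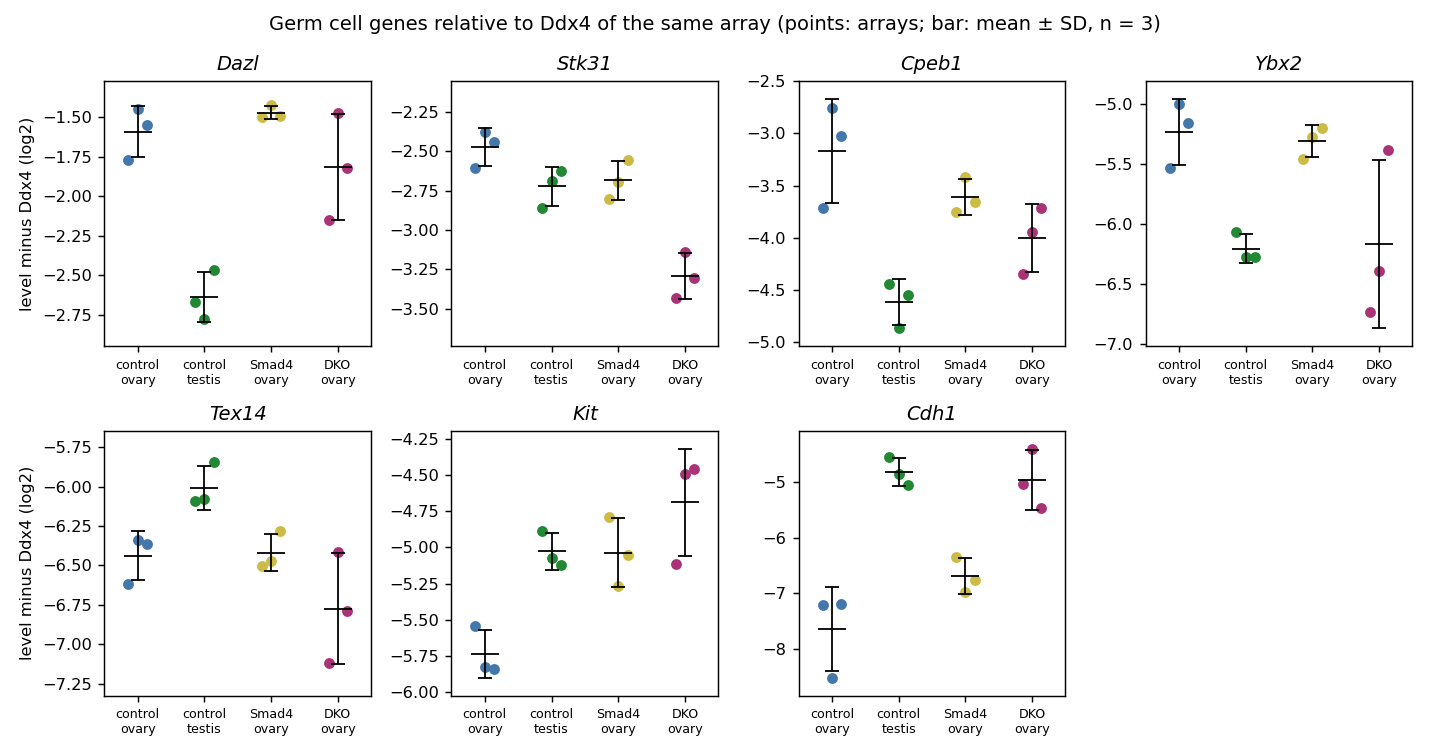
Level of 7 germ cell genes minus the Ddx4 level of the same array (log2), in 4 groups of 3 arrays; points are arrays, the long bar is the mean and the whiskers are the SD, and each panel has its own axis. Stk31 is lowest in the DKO ovaries, Cdh1 is higher in testes and DKO ovaries than in the other ovaries, and Dazl, Cpeb1 and Ybx2 stay lower in testes than in control ovaries. Kit of the DKO ovaries overlaps that of the Smad4 ovaries and of the testes.

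Among replicates of one group the genes did not move as a single block. Over the 12 arrays, after each group's mean was taken off, the correlations of the 28 pairs of the 8 genes ran from -0.64 for Cpeb1 and Cdh1 to 0.89 for Dazl and Tex14, with a median of 0.24, and 18 were above 0. Kit and Cdh1 had 0.56. All of these share the arrays and their scaling, and they are given as a description.

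Genes whose levels over the 12 arrays were most like those of each member, by Pearson's r and again as a description, were Exosc7, Zswim7 and the transcript ENSMUST00000134657 for Ddx4, and Alg13, 1700013H16Rik and Nr2e3 for Dazl. For Stk31 they were Stau1, the probe named NAP099398-001 and Stk17b, for Cpeb1 they were Rpgr, Utp18 and the synaptonemal complex gene Sycp1, and for Ybx2 they were Phlpp1, Rabgap1 and the cyclin gene Ccnb3. For Kit they were Wdr77, the pluripotency factor gene Sox2 and Prep, and for Cdh1 they were Pkmyt1, Acot10 and Dyrk3. In these 7 genes r ran from 0.95 to 0.99. Tex14 came with Skiv2l2, Tex10 and Grpel2 at r of 0.78 to 0.83. The mean level of Sox2 was -0.66 in control ovaries, -0.50 in testes, 0.30 in Smad4 ovaries and 1.42 in DKO ovaries, the order in which Kit stood. Sox2 was picked for its likeness to Kit on these same arrays, so the shared order is no separate result.

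Of 15 other genes of germ cells of both sexes, 9 rose and 3 fell in DKO ovaries against control ovaries, and 9 rose and 4 fell in testes against control ovaries, whereas 0 were called in Smad4 ovaries. The shares of all genes called higher and lower, beside which this and the next counts stand, were 6.73% and 7.94% in DKO ovaries, 17.3% and 16.7% in testes, and 0.134% and 0.139% in Smad4 ovaries. The median change was 1.38 in DKO ovaries and 0.94 in testes, where that of all genes was 0.0035 and 0.02. Among those in DKO ovaries the RNA-binding factors Nanos3 and Dnd1 rose by 3.82 and 2.49, and Sycp3, of the meiotic chromosome axis, and Taf7l, a germ cell transcription factor subunit, fell by 1.81 and 1.24. In testes Nanos3 and Dnd1 rose by 4.37 and 3.61, and Taf7l and Sycp3 fell by 4.18 and 3.63. Nanos3 was above background on 1 of 3 control ovary arrays, so these rises have only 1 measured control level.

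**Figure D4:**
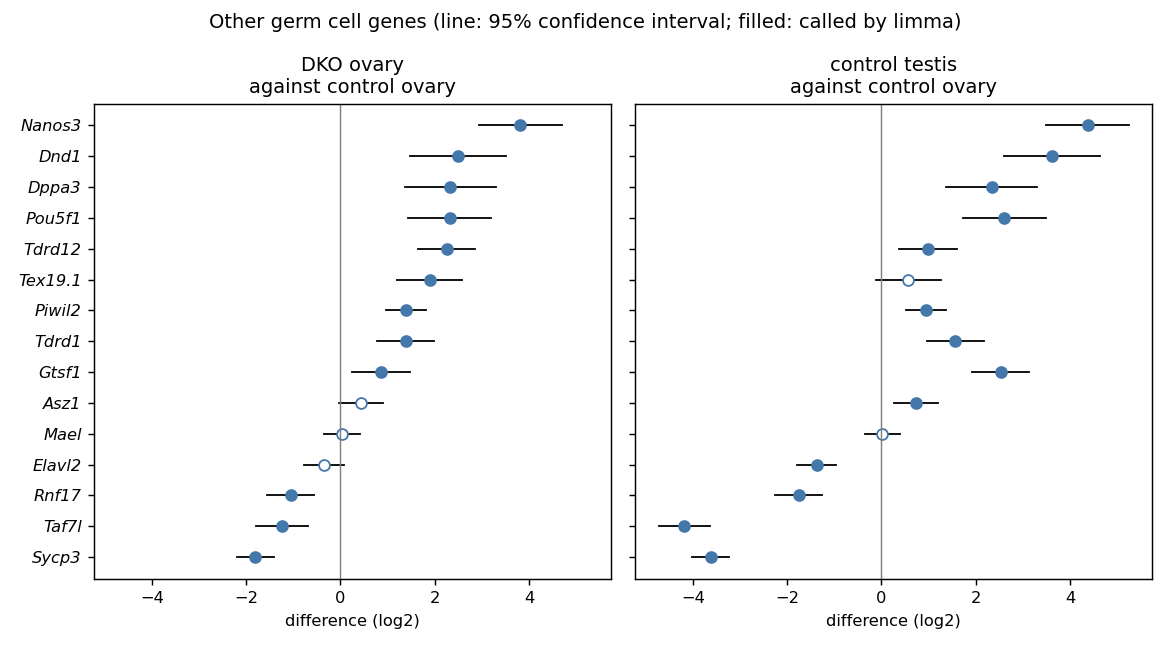
Difference in relative level (log2) of 15 further germ cell genes in DKO ovaries and in control testes, each against control ovaries; the point is the estimate of limma, the line its 95% confidence interval, and filled points were called. In both panels 9 genes were called higher, with Nanos3 the highest in each.

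Of 24 further genes of the control of translation, where Cpeb1, Ybx2 and Dazl act, 0 rose and 7 fell in DKO ovaries, 1 rose and 8 fell in testes, and 0 were called in Smad4 ovaries, all against control ovaries. Of all genes 7.94% fell in DKO ovaries and 16.7% in testes. The median change was -0.17 in DKO ovaries and -0.38 in testes, where that of all genes was 0.0035 and 0.02. The Cpeb1 paralogs Cpeb2 and Cpeb3 fell by 2.06 and 1.89 in DKO ovaries. In testes Cpeb3 and Fmr1, which encodes an RNA-binding repressor of translation, fell by 2.49 and 1.57, and the oocyte gene Zar1 rose by 3.05. Zar1 was above background on 2 of 3 control ovary arrays, so the size of its rise is uncertain.

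Of 24 genes that act with KIT or E-cadherin or lie at the germ cell surface, 1 rose in DKO ovaries against control ovaries, Alpl, the phosphatase long used to stain early germ cells, by 1.77, and 0 fell, where 6.73% and 7.94% of all genes did. Its level was 2.30, 1.52 and 1.92 in control ovaries and 4.16, 3.83 and 3.05 in DKO ovaries, without overlap. The KIT ligand gene Kitl differed by -0.48 ± 0.20 (limma adjusted p = 0.110) and Ctnnb1, the beta-catenin that binds E-cadherin, by 0.04 ± 0.09 (limma adjusted p = 0.786). In testes 4 of the 24 rose and 5 fell, near the 17.3% and 16.7% of all genes, led by the chemokine gene Cxcl12 at 3.73 and the gap junction gene Gja1 at 1.09, and by Kitl at -2.09 and Ifitm1 at -1.16. Kitl is made by somatic cells of the gonad.

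Of 12 genes of the intercellular bridge and of cytokinesis, 0 rose and 1 fell in DKO ovaries, the midbody kinesin gene Kif23, by 1.13, and 2 rose and 2 fell in testes. These counts are near the shares of all genes, 6.73% higher and 7.94% lower in DKO ovaries and 17.3% and 16.7% in testes. Those in testes were Sept9 and Prc1, at 0.66 and 0.63, and Rbm44, of the germ cell bridge, and Ect2, at -1.48 and -0.97. Of 16 genes listed as spermatogonial stem cell genes 12 were tested, and Gfra1 and Ret of that list were above background on no array. Of the 12, 5 rose and 1 fell in DKO ovaries and 5 rose and 3 fell in testes, against control ovaries. Of all genes 6.73% and 7.94% did so in DKO ovaries and 17.3% and 16.7% in testes. Nanos2, the male germ cell determinant, was not well above background on any control ovary and was at least 7.45-fold higher in DKO ovaries and at least 43-fold higher in testes, by the lowest signal well above background on each array. Utf1 rose by 2.61 and 3.64 in the same comparisons, Taf4b fell by 1.47 and 1.62, and Sohlh2 fell by 2.89 in testes.

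Kit is also made by mast cells and melanocytes, and Cdh1 by the epithelium of the mesonephros next to the gonad, so the markers of those cells stand beside the 2 results. Of 6 mesonephric genes 5 were tested, and in DKO against control ovaries 1 was called, Lhx1, higher by 1.54, and it was also higher in testes, by 1.31. Their summed level, in units of the 75th percentile, was 0.985 to 3.11 in control ovaries, between 0.370 and 0.424 in testes, 1.51 to 1.52 in Smad4 ovaries and 1.47 to 3.89 in DKO ovaries. In testes Gata3, also of this list, fell by 2.99, and Pax2 differed by 0.27 (limma adjusted p = 0.231). Within ovaries, Cdh16, the cadherin of kidney and mesonephric tubules, stood at 0.62 in control ovary 3 and 1.20 in DKO ovary 3, and at -2.14 or below in the other 7 ovaries.

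The 5 mast cell markers summed to 0.0615 to 1.14 in control ovaries, 0.113 to 0.127 in testes, 0.354 to 0.489 in Smad4 ovaries and 0.114 to 0.866 in DKO ovaries, with Tpsb2 above background on no array, and the 1 marker tested, Cpa3, was not called. Cpa3 was highest in control ovary 1, at 0.07, the control ovary with the highest Kit. It stood at -4.44, -2.80 and -0.33 in DKO ovaries 1 to 3, where Kit rose in the same order, at 0.36, 0.55 and 0.64. In Smad4 ovaries Cpa3 was -1.73, -1.16 and -1.59, lowest in Smad4 ovary 1, the one with the highest Kit of that group. The 3 melanocyte markers on the array summed to 0.660 to 0.826 (control ovaries), 2.02 to 2.18 (testes), 0.943 to 0.958 (Smad4 ovaries) and 0.938 to 1.19 (DKO ovaries), with Tyr above background on no array. Of these, Mlana rose by 2.55 in DKO ovaries and by 4.31 in testes, and Dct fell by 1.73 in testes, each against control ovaries. Against Smad4 ovaries, Mlana rose in DKO ovaries by 2.30 and Dct fell by 0.88. Their part in the Kit and Cdh1 results was not tested.

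Since the DKO ovaries lack STRA8, a transcription factor, the promoters of the genes were read for the letters CCTCAG, taken here as the core of a STRA8-type site, for the E-box CACGTG and for the E2F-type letters TTCCCGC, all on either strand. RefSeq promoters of GRCm38.p6, 250 bases before to 50 after the start, were found for 7 of the 8 genes, and the set used held none for Cdh1. Of 32841 promoters, 26.8% held CCTCAG, 7.15% held CACGTG and 4.6% held TTCCCGC. Of genes lower in DKO ovaries, Stk31 held CCTCAG and CACGTG once each in its first promoter and CACGTG once and CCTCAG 3 times in its second, which overlaps the first, Cpeb1 held these once each, and Ybx2 held CCTCAG once in its second promoter and none of the motifs in its first. Dazl held CCTCAG at 2 places and Tex14 at 1, and neither was called. Kit, higher in DKO ovaries, held none of the motifs in either promoter. Ddx4 held CACGTG and TTCCCGC once each, and Tex14 held TTCCCGC once. In DKO against Smad4 ovaries, which were Stra8+/-, Stk31 differed by -0.21, Cpeb1 by -0.0008 and Ybx2 by -0.46. None of these was called (limma adjusted p = 0.349, 0.999 and 0.221). A match is only a run of letters. The promoters of Stk31, at chr6:49395289-49395588 on the plus strand, and of Cpeb1, at chr7:81454709-81455008 on the minus strand, are shown for genes that fell, and that of Kit, at chr5:75574737-75575036 on the plus strand, for one that rose, with motif matches in capitals.
Stk31 promoter: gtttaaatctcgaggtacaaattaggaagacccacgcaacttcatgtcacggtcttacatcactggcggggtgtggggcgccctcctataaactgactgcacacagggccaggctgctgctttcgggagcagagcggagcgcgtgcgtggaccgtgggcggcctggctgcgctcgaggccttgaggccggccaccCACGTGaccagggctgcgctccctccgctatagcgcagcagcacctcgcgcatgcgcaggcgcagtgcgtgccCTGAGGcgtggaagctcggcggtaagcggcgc
Cpeb1 promoter: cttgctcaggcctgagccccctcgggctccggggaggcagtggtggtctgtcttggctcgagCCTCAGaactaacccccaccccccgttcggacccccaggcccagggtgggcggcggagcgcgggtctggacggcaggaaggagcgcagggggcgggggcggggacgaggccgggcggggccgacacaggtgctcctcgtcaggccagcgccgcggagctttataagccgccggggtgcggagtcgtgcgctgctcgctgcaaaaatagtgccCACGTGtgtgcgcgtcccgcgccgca
Kit promoter: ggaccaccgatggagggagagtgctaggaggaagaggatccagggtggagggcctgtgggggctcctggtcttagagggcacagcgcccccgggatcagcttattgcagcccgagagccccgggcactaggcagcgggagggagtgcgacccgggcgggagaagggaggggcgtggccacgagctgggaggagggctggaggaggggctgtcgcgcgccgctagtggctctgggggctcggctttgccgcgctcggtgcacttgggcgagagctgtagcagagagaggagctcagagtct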

How the data were processed

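Total RNA of 12 mouse gonad samples was hybridised by the authors to single-colour Agilent arrays, 1 array a sample, and groups and replicate numbers were taken from the labels. The authors deposited the scanner output, whose processed intensity is background-corrected by Feature Extraction 11.0.1.1, and a table of the same intensity, which matched it within 0.51% for 100% of values, with no scaling between arrays. From the deposited intensity, log2 minus log2 of each array's 75th percentile over non-control spots was computed here, with spots averaged per probe after removal of those marked as outliers. The filter kept the 27309 of 41174 probes that exceeded background on all arrays of some group, and probes sharing a gene name were averaged, giving 18680 genes. The number of arrays, 3 a group, limits the precision.

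One limma model (limma 3.58.1, R 4.3.3) of 4 group means was fitted to all genes, and p-values were adjusted by Benjamini-Hochberg over all of them. With 3 arrays a group, the smallest p of an exact permutation test is 0.1, and none was used. The fit was tested on simulated data with 200 of 18648 genes changed 2-fold, and in the simulated comparison of DKO with control ovaries it found 59.5% of them and made 3 false calls. The members, the gene lists and the comparisons were chosen with earlier results of these data known. Named genes were all members, the 2 largest rises and falls of each list among called genes in DKO ovaries or testes against control ovaries, and the 3 genes most like each member by Pearson's r; Sox2, Kitl, Ctnnb1, Cdh16, Gata3, Pax2 and Cpa3 were singled out or given values after theirs were seen. The alternatives tried comprised the deposited table, quantile normalization, normexp with an offset of 50, the brightest probe, no filter on dim probes, slide and replicate blocks, only the groups compared, no fold threshold, the t-test of the methods, scaling to Ddx4, each array left out in turn and, added after the data were seen, single probes of Dazl and Tex14.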

Additional observations from a re-analysis of the deposited data

How the results depend on the processing

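Where a call was lost or a direction turned, the cause was not tested. The counts of members called moved as follows. In testes against control ovaries, 5 became 4 with the deposited table, and 6 with slide as a block or without a fold threshold. In Smad4 against control ovaries, 0 became 1 with slide as a block (Ybx2) and 1 by the methods' t-test unadjusted (Cpeb1). The slide-block values of this comparison, here and below, are indirect and rest on DKO ovary 3, which stood apart in Ybx2. In DKO against control ovaries, 5 became 2 with the deposited table, 3 with only the groups compared, 1 by the methods' t-test adjusted (Stk31) and 3 scaled to Ddx4, and 4 with normexp, without a filter, with slide as a block or by the methods' t-test unadjusted. In DKO against Smad4 ovaries, 2 became 1 with the deposited table, 1 without a filter, 1 with slide as a block, 1 with only the groups compared and 0 by the methods' t-test adjusted. In DKO ovaries against testes, 5 became 3 with the deposited table, 3 with slide as a block and 2 scaled to Ddx4, and 4 with normexp, with only the groups compared or by either form of the methods' t-test. With each array left out in turn, the counts were 5 to 6 in testes against control ovaries, 0 to 0 in Smad4 and 3 to 5 in DKO against control ovaries, 1 to 2 in DKO against Smad4 ovaries and 4 to 5 in DKO ovaries against testes. Deviations from the group mean had correlations of -0.18 to 0.15 between same-numbered replicates, over 18 pairs. With 3 arrays a group, these cannot settle whether the numbers paired the samples. With a replicate block the counts were 5, 0, 5, 2 and 5, none moved.

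Kit and Cdh1 in DKO against control ovaries lost their calls only by the methods' t-test adjusted, and Stk31 only with the deposited table (adjusted p = 0.294) and with slide as a block (-0.54). Ybx2 kept direction and call there in only 6 of 18 settings, left-out arrays included, and Cpeb1 in 12 of 18. Kit in DKO against Smad4 ovaries kept its call in 8 of 18, and Ybx2 in DKO ovaries against testes in 7 of 18. Directions turned as follows. In testes against control ovaries, Kit was -0.32 with slide as a block and Tex14 0.43 scaled to Ddx4. In Smad4 against control ovaries, with slide as a block, Ddx4 was 0.0571, Dazl 0.0948 and Tex14 0.0088, and scaled to Ddx4, Dazl was 0.12 and Tex14 0.0207. In DKO against control ovaries, Tex14 was 0.0242 with normexp, and Dazl 0.0238 with slide as a block and 0.0363 by its first probe. In DKO against Smad4 ovaries, Tex14 was -0.0115 and Cpeb1 0.0235 with quantile normalization. With slide as a block there, Dazl was -0.071, Tex14 -0.0898, Cpeb1 0.17 and Ybx2 0.20, scaled to Ddx4, Dazl was -0.34 and Tex14 -0.35, and by its second probe Tex14 was -0.0629. In DKO ovaries against testes, Tex14 was 0.0805 with normexp, 0.12 by its brightest probe and 0.15 with slide as a block, and scaled to Ddx4, Stk31 was -0.57 and Cdh1 -0.14. With each array left out in turn, the changes near 0 that turned ran from -0.0411 to 0.1125 in Dazl, -0.0613 to 0.1013 in Tex14 and -0.0987 to 0.1327 in Cpeb1 in DKO against Smad4 ovaries, and from -0.1636 to 0.0818 in Tex14 in DKO ovaries against testes. Among the changes of single members, 639 values kept direction and side of the threshold, 52 lost and 11 gained a call, and 33 turned. Signal over background limits Tex14, whose second probe was near background.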
